A study of Mus musculus with 36 samples.

Results

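Germ cells of the fetal mouse gonad carry a set of proteins that few other cells make, and 36 genes of that set are described here. Of these, 17 serve the piRNA pathway and 19 serve meiosis. They were taken from a list of gene symbols that used no measured value, though earlier results of these data were known when it was chosen. A row with the symbol was found for 35 of the 36 in the count tables, which hold 21699 gene rows each, and the missing one was Meioc. A gene was tested at a stage when it reached at least 1 CPM, a count scaled for library size, in any 2 or more of the 12 libraries, which kept 28 members at E11.5 and 31 at E12.5, of 14217 and 14348 genes kept in all.

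The libraries came from gonads of 4 genotypes at 2 stages, with 3 libraries in each of the 8 groups, and made up 24 of the 36 samples of the series. KO embryos carried the Cre transgene Tg(CAG-cre)1Nagy and were del/del for the miR-17~92 microRNA cluster: the ubiquitous CAG promoter drives this Cre, so both copies were to be lost from somatic and germ cells alike. The floxed allele was kept on a C57BL/6 × 129S4/SvJae background. The labels call the KO samples MiRC1 Mutant and the controls WT, and name the sex as female or male, written here as XX and XY. They give no allele for the controls beyond the name WT. Each replicate pooled 2 pairs of gonads. RNA at E11.5 came from the gonad joined to the mesonephros and at E12.5 from the gonad alone, and the kit also differed, so the stages were set side by side without a test. The labels name no litter, batch or day and no stage finer than the embryonic day, so the p-values measure only the spread between these samples.

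The piRNA pathway protects the germline genome from transposons. PIWI proteins bind small RNAs, and Tudor domain proteins hold the PIWI proteins in granules near the mitochondria. In the fetal testis this pathway arms germ cells that stop dividing, whereas germ cells of the fetal ovary answer retinoic acid, switch on Stra8 and enter meiosis, for which they build cohesin rings, chromosome axes and the synaptonemal complex. Germ cells of the fetal testis are kept out of meiosis by CYP26B1, a Sertoli cell enzyme that degrades retinoic acid, and by NANOS2.

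The germ cell content of the libraries is given first, since bulk RNA cannot tell fewer germ cells from less RNA per germ cell. Across 12 tested germ cell markers that are not members, such as Ddx4, Dazl and Pou5f1, the summed level at E12.5 was 1125, 1901 and 1165 CPM in XX controls and 1079, 1113 and 1335 CPM in XY controls. It was 956, 903 and 436 CPM in XX KO and 768, 948 and 821 CPM in XY KO gonads. The KO libraries lay below the control libraries of the same sex without overlap, by -0.87 on the log2 scale in XX and by -0.47 in XY. An exact two-sided permutation test gave p = 0.1 for both, the smallest value that 3 against 3 libraries allow. At E11.5 the sum lay between 73.6 and 358 CPM and the genotypes overlapped, except that all XY KO libraries lay below all XX controls. The host transcript of the cluster, Mir17hg, stood at 33.4 ± 3.54 CPM in XX controls, 21.7 ± 8.42 in XY controls, 77.8 ± 9.64 in XX KO and 80.0 ± 1.72 in XY KO gonads at E12.5 (SD, n = 3). Its counts come from the whole host gene, so this level does not check the deleted stretch itself. Total counts ran from 11877379 to 44155275 per library.

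The promoters of the members were searched for 3 short sequences known from germline genes, on both strands, in RefSeq windows around the start site (GRCm38.p6). A window was found for 31 of the 36. The E-box CACGTG, bound by basic helix-loop-helix factors, was in 13 of the 31 (41.9%), against 11.2% of the windows of 11574 tested genes. The E2F type motif TCCCGC was in 12 (38.7%) against 38.4%. The motif CNCCTCAG, which STRA8 is known to bind, was in 8 (25.8%) against 10.8%. In Syce2 a TCCCGC match overlaps a CNCCTCAG match. The median GC content was 60% for the members and 60.7% for tested genes. A match describes the letters only, and these windows were compared without a test. E-box matches of 6 piRNA and synaptonemal genes on which results turn are shown with the motif in capitals, read along the gene's strand, beside the single TCCCGC match of Rec8. The Stra8 window held none of the 3 motifs.
Sycp3, chr10:88459512-88459539, plus strand: ccgttggctccCACGTGagaacgggcat
Syce2, chr8:84872159-84872186, plus strand: gtttcattcagCACGTGctcggggcggg
Fkbp6, chr5:135350065-135350092, minus strand: cgtctatcgatCACGTGccgtttctctc
Mael, chr1:166238951-166238978, minus strand: accaggcctacCACGTGacaatccccgc
Mov10l1, chr15:88982744-88982771, plus strand: ccttCACGTGctaaccgccaacctctcg
Tdrd1, chr19:56826187-56826214, plus strand: ggggctgcgcgCACGTGggagtaaactg
Rec8, chr14:55618117-55618144, plus strand: tgtgcacctgaTCCCGCtggagggcgac

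**Figure D1:**
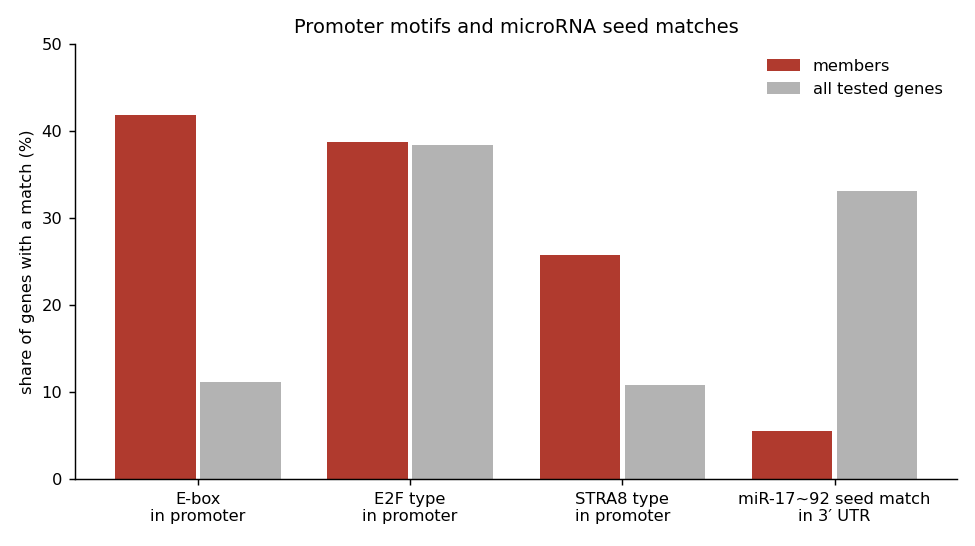
Share of genes in percent (y axis, bars from 0) with a match to each of 3 promoter motifs and with a miR-17~92 seed match in the 3′ UTR, for members and for all tested genes. The E-box is in 41.9% of the 31 member windows and 11.2% of the tested genes' windows, and the E2F type motif in 38.7% and 38.4%, while seed matches are in 5.56% of members and 33.1% of tested genes.

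The cluster's microRNAs have few seed matches in these genes. The 4 seed families are shown by 1 mature microRNA each, from the RefSeq hairpins on the plus strand of chromosome 14 (GRCm38.p6), with bases 2 to 8, the seed, in capitals.
mmu-miR-17-5p, chr14:115043684-115043706: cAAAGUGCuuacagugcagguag
mmu-miR-18a-5p, chr14:115043867-115043889: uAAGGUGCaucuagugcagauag
mmu-miR-19a-3p, chr14:115044048-115044070: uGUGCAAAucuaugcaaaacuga
mmu-miR-92a-3p, chr14:115044476-115044496: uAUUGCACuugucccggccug

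A match to bases 2 to 8 of any of the 4 was found in the 3′ UTR of 2 of the 36 members (5.56%), against 33.1% of 14039 tested genes with an annotated 3′ UTR. The members' 3′ UTRs were shorter, with a median of 385.5 bases against 1164, and the shares were not set right for length. The pair were Piwil4 and Taf4b. Taf4b holds a miR-17 match. At E12.5 its level did not pass in XY KO against XY controls (-0.23, adjusted p = 0.543 by edgeR) and fell in XX KO gonads by 0.88 (adjusted p = 0.0375). Piwil4 holds a miR-17 match at base 394 and a miR-92 match at base 1280 of its 3′ UTR, shown with the match in capitals. Its level in XY KO gonads at E12.5, the only stage at which it was tested, was 2.57, 1.28 and 0.901 CPM. XY controls stood at 1.65, 1.30 and 1.39 CPM, and the groups overlapped.
Piwil4, miR-17 match: aataaaaaGCACTTTtagtctta
Piwil4, miR-92 match: ccatgtgtGTGCAATgcccacag

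At E12.5, 9 of the 31 tested members were higher in XX than in XY controls and 0 were lower (edgeR quasi-likelihood test, Benjamini-Hochberg adjusted p under 0.05). Of all tested genes, edgeR called 11.4% higher and 12.4% lower in that comparison. Of the members, 1 had an unadjusted p under 0.05 in the lower direction. DESeq2 called 12 members higher and 1 lower, where it called 26.4% of all genes in either direction. The 9 were 8 of the 16 tested meiosis genes and 1 of the 15 tested piRNA genes. The median log2 fold change was 0.92 over the meiosis genes and 0.34 over the piRNA genes, against 0.007 over all genes. Over all 31 members the median was 0.47, and it was 0.07 without XX control replicate 2 and 0.82 without XX control replicate 1. The libraries of the 2 sexes did not overlap for 8 members, all higher in XX, whereas 18% of all genes were apart in that direction. The germ marker sum overlapped between the control sexes (log2 ratio 0.25, exact permutation p = 0.5). Without XX control replicate 1, 15 members were called higher in XX, and without XX control replicate 2 or XY control replicate 1, 6 were. With libraries scaled to the germ markers, Rec8 and Stra8 remained called, where 10.6% of all genes were called in either direction.

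Rec8, which encodes the meiotic form of the cohesin ring's kleisin subunit, showed the clearest step. The gene lies at chr14:55618037-55625395 on the plus strand (mm10, GENCODE positions). Its level at E12.5 was 82.1, 89.7 and 82.3 CPM in XX controls and 2.87, 6.76 and 4.52 CPM in XY controls. The KO gonads of both sexes stood nearer to the XX than to the XY controls. They measured 64.8, 79.6 and 90.9 CPM in XX KO and 47.6, 73.1 and 61.9 CPM in XY KO gonads. Every XY KO library lay below every XX control. All 9 libraries other than the XY controls were thus at 47.6 CPM or more. Rec8 was higher in XX than in XY controls by 4.16 ± 0.26 (log2 fold change ± SE, adjusted p = 5.06e-08 by edgeR). It rose in XY KO against XY control gonads by 3.68 ± 0.26 (adjusted p = 2.24e-07). Per 100 CPM of germ marker the level was 0.266, 0.608 and 0.339 in XY controls and between 4.72 and 20.8 in the other 9 libraries.

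One day earlier Rec8 showed no such split. At E11.5 it stood at 42.5, 31.0 and 24.5 CPM in XX controls, 28, 28.2 and 19.4 CPM in XY controls, 35.3, 12.8 and 27.1 CPM in XX KO and 37.1, 33.6 and 26.7 CPM in XY KO libraries. The 4 genotypes overlapped. Within a genotype its order did not follow the germ markers: in the XX controls Rec8 was highest in replicate 1, where the germ marker sum was lowest at 128 CPM, and lowest in replicate 3, where the sum was 358 CPM.

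Stra8, the gatekeeper that retinoic acid induces at meiotic entry, lies at chr6:34920163-34939344 on the plus strand. At E12.5 its level was 0.877, 44.3 and 25.4 CPM in XX controls and 0.131, 0.217 and 0.0869 CPM in XY controls, where it rested on 3, 5 and 1 counts. It reached 25.8, 16.6 and 22.4 CPM in XX KO and 20.9, 21.9 and 5.08 CPM in XY KO gonads. The XY control libraries were the lowest 3 of the 12, and XX control replicate 1 stood far nearer to them than to the other XX controls. The fitted difference was 7.19 ± 1.37 between XX and XY controls (adjusted p = 0.00201 by edgeR), and with those 2 genotypes fitted alone it did not pass (7.19, adjusted p = 0.072). In XY KO against XY control gonads Stra8 rose by 6.61 ± 1.39 (adjusted p = 0.00469). Stra8 passed the filter on low values only through the 3 genotypes in which it was high. At E11.5 it did not pass, with 0 counts in every XY library and its highest value, 0.553 CPM from 13 counts, in XX KO replicate 2.

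**Figure D2:**
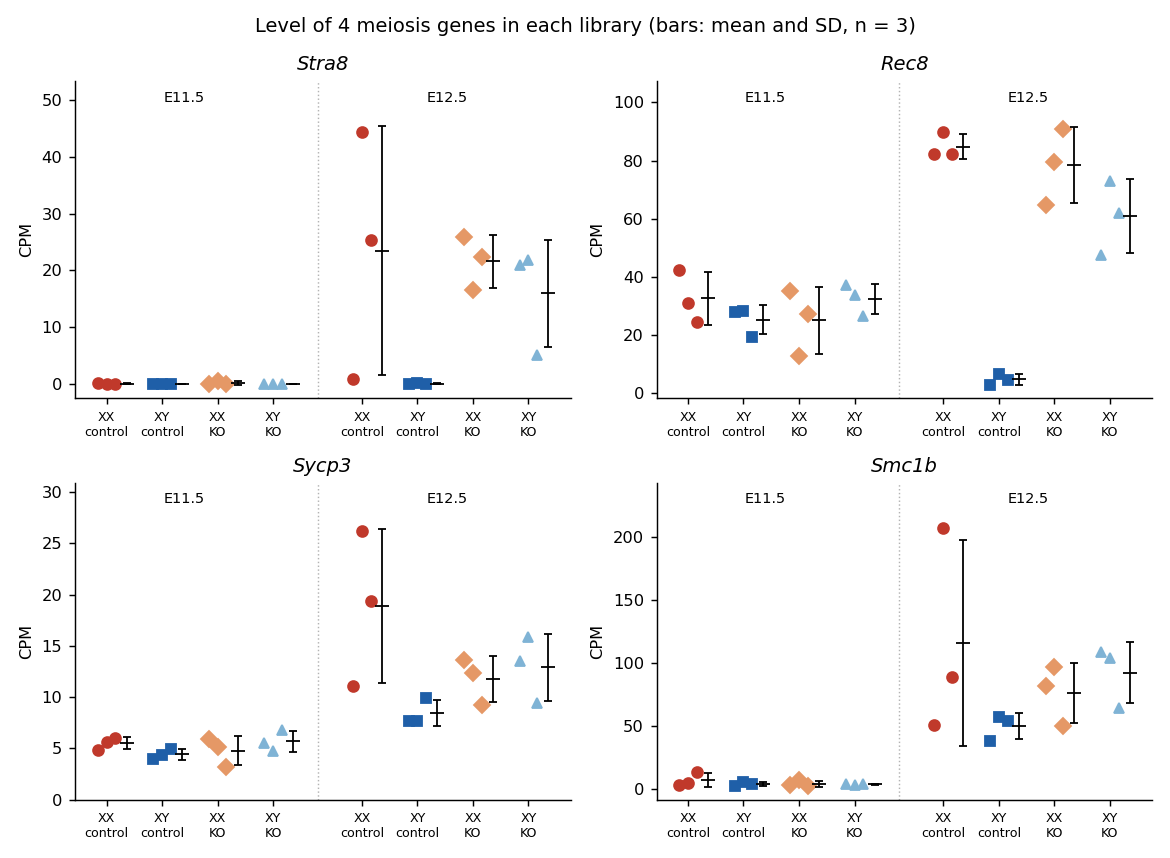
Levels in CPM of Stra8, Rec8, Sycp3 and Smc1b in each library (points) of the 4 genotypes at E11.5 and E12.5, with mean and SD (bars, n = 3). At E12.5 the XY control libraries of Rec8 lie between 2.87 and 6.76 CPM and all other libraries at 47.6 CPM or more, while at E11.5 the genotypes overlap.

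Among the 5 tested genes of the synaptonemal complex, the zipper that joins paired chromosomes, 3 were higher in XX than in XY controls. Sycp3, a component of its lateral elements and 1 of the genes with the E-box shown above, stood at 11.1, 26.2 and 19.4 CPM in XX controls, 7.71, 7.72 and 9.91 CPM in XY controls, 13.6, 12.4 and 9.26 CPM in XX KO and 13.5, 15.9 and 9.45 CPM in XY KO gonads. All 3 XX controls lay above all 3 XY controls, and both KO genotypes overlapped the latter. The difference between the control sexes was 1.17 ± 0.28 (adjusted p = 0.0066 by edgeR). Of the exon bases of Sycp3, 52.2% are shared with Chpt1 on the opposite strand, and since the strand setting of the counting is not given in the sources used here, its counts are uncertain.

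Syce1 and Syce2 encode proteins of the central element of that complex. Syce1 differed by 0.99 ± 0.31 (adjusted p = 0.03 by edgeR) and Syce2 by 0.57 ± 0.16 (adjusted p = 0.0195). Syce2 was the more even of the pair, at 52.1, 78.9 and 58.2 CPM in XX controls and 41.8, 44.6 and 41.2 CPM in XY controls. Sycp1, the transverse filament, and Sycp2, a lateral element partner of SYCP3, had log2 fold changes of 0.30 and -0.05 and did not pass. Syce3 stayed below the filter at both stages, at 1.01 CPM or less.

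Of the other meiotic cohesin genes, Smc1b was called between the control sexes and Stag3 was not. Smc1b, the meiotic SMC subunit, stood at 51.0, 207 and 89.3 CPM in XX controls and 38.2, 57.5 and 54.0 CPM in XY controls, so the groups overlapped by 1 library. It differed by 1.22 ± 0.41 (adjusted p = 0.0432 by edgeR). Stag3, the meiotic stromalin, differed by 0.72 ± 0.26 (adjusted p = 0.0554).

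Hormad1 and Hormad2 encode HORMA domain proteins that coat unpaired chromosome axes. Hormad2 was higher in XX controls, at 7.06, 14.4 and 9.56 CPM against 4.79, 5.16 and 5.65 CPM, a difference of 1.00 ± 0.24 (adjusted p = 0.00586 by edgeR). For Hormad1 the difference was 0.88 ± 0.33 (adjusted p = 0.0728). Among the recombination genes, Msh4, which stabilises crossover intermediates, stood at 1.55, 4.64 and 3.25 CPM against 0.827, 1.08 and 1.22 CPM and differed by 1.61 ± 0.39 (adjusted p = 0.00692). Dmc1, the meiotic recombinase, differed by 0.95 ± 0.36 (adjusted p = 0.0683) and Spo11, which cuts the DNA to start recombination, by 0.56 ± 0.44 (adjusted p = 0.423). Mei1, needed for those cuts, passed the filter at neither stage. Slc25a31, a germline ADP/ATP carrier of the mitochondrion, had a log2 fold change of 0.47, and Taf4b, a TFIID subunit that acts in oocytes, one of 0.26, and neither passed.

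Of the piRNA genes, Fkbp6, an HSP90 co-chaperone that helps load PIWI proteins, was higher in XX than in XY controls and was the only one called in that comparison. It stood at 57.6, 99.0 and 70.6 CPM in XX controls and 47.5, 40.1 and 31.4 CPM in XY controls, a difference of 0.93 ± 0.22 (adjusted p = 0.00566 by edgeR). In XX KO gonads it measured 60.3, 42.0 and 36.5 CPM, and in XY KO gonads 29.6, 34.0 and 34.4 CPM. The XY KO libraries were thus all below the XX controls. Per kilobase of exon, its mean in XX controls, 43.2 CPM, was the highest genotype mean of any member at E12.5, and its mean in XY KO gonads was 18.6 CPM. Mael, a granule protein that supports transposon silencing, had a difference of 0.94 ± 0.33, which missed the threshold (adjusted p = 0.0521).

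The other 14 tested piRNA genes were not called between the control sexes. Piwil2, the PIWI protein MILI, ran from 59.7 to 65.1 CPM in XY controls and from 61.3 to 124 CPM in XX controls. Piwil4, the nuclear PIWI protein MIWI2, was low, at 0.464 to 3.68 CPM over all 12 libraries. The Tudor gene Tdrd5 went the other way from most members, at 20.1, 33.5 and 19.5 CPM in XX controls and 40.8, 31.5 and 36.4 CPM in XY controls (log2 fold change -0.57 ± 0.22, adjusted p = 0.0705 by edgeR). It was called lower in XX by DESeq2 and with the compared genotypes alone. The same held without XX control replicate 2 or XX KO replicate 3. At E11.5, 0 of the 28 tested members were called between the control sexes, where 0.886% of all genes were. Only Tdrd9, a piRNA helicase, and Dmc1 had an unadjusted p under 0.05, both lower in XX, and DESeq2 called 0 members.

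XY KO gonads were compared with XY controls to ask how the loss of the cluster acts on these genes in genetic males. At E12.5, 2 of the 31 members rose, Rec8 and Stra8, and 2 fell, Tdrd5 and Piwil1, whereas 10.3% of all genes rose and 10.3% fell. Both shares of the members lie below those of all genes, and Piwil1 and Stra8 passed the filter only through the groups in which they were high. The other 27 did not pass, and the median log2 fold change was 0.27 over the meiosis genes and -0.09 over the piRNA genes, beside -0.008 over all genes. With libraries scaled to the germ markers, 27 of the 31 lay above 0 with a median of 0.46, the same as the shifted median of all genes. Of the 12 germ markers, 3 were called lower, with a median of -0.54. The 6 other meiosis genes and 1 piRNA gene that were higher in XX than in XY controls were not called in XY KO against XY controls, with log2 fold changes from -0.28 for Fkbp6 to 0.89 for Smc1b. Both comparisons use the same XY control libraries. Under that scaling Rec8, Stra8 and Smc1b were called higher and 0 members lower, where 12.8% of all genes were called in either direction.

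Tdrd5, which organises piRNA granules, lies at chr1:156255296-156303664 on the minus strand. In XY KO gonads it stood at 16.6, 15.7 and 14.3 CPM, below the 31.5 to 40.8 CPM of the XY controls, and fell by 1.22 ± 0.22 on the log2 scale (adjusted p = 0.000944 by edgeR). XX KO gonads had similar levels of 16.7, 15.9 and 10.6 CPM. Per 100 CPM of germ marker, the XY controls held 3.78, 2.83 and 2.73 CPM of Tdrd5 and the other 9 libraries between 1.65 and 2.42. When the libraries were scaled to the germ markers, the difference was -0.75 and no longer passed (adjusted p = 0.214). Scaling to Ddx4 and Dazl gave -1.0 (adjusted p = 0.499).

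Piwil1, the PIWI protein MIWI, which acts mainly after birth, was scarce. It measured 1.44, 0.65 and 1.48 CPM in XY controls and 0.175, 0.675 and 0.218 CPM in XY KO gonads, so the groups overlapped by 1 library. It passed the filter only through the XY controls. Its log2 fold change was -1.82 ± 0.49 (adjusted p = 0.0164 by edgeR), and the call was lost without XY control replicate 1, XY KO replicate 1 or XY KO replicate 3. Sycp3, Smc1b and Msh4 were above the XY control mean in XY KO gonads by 0.62, 0.89 and 0.83 on the log2 scale without passing (adjusted p of 0.15, 0.148 and 0.171).

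**Figure D3:**
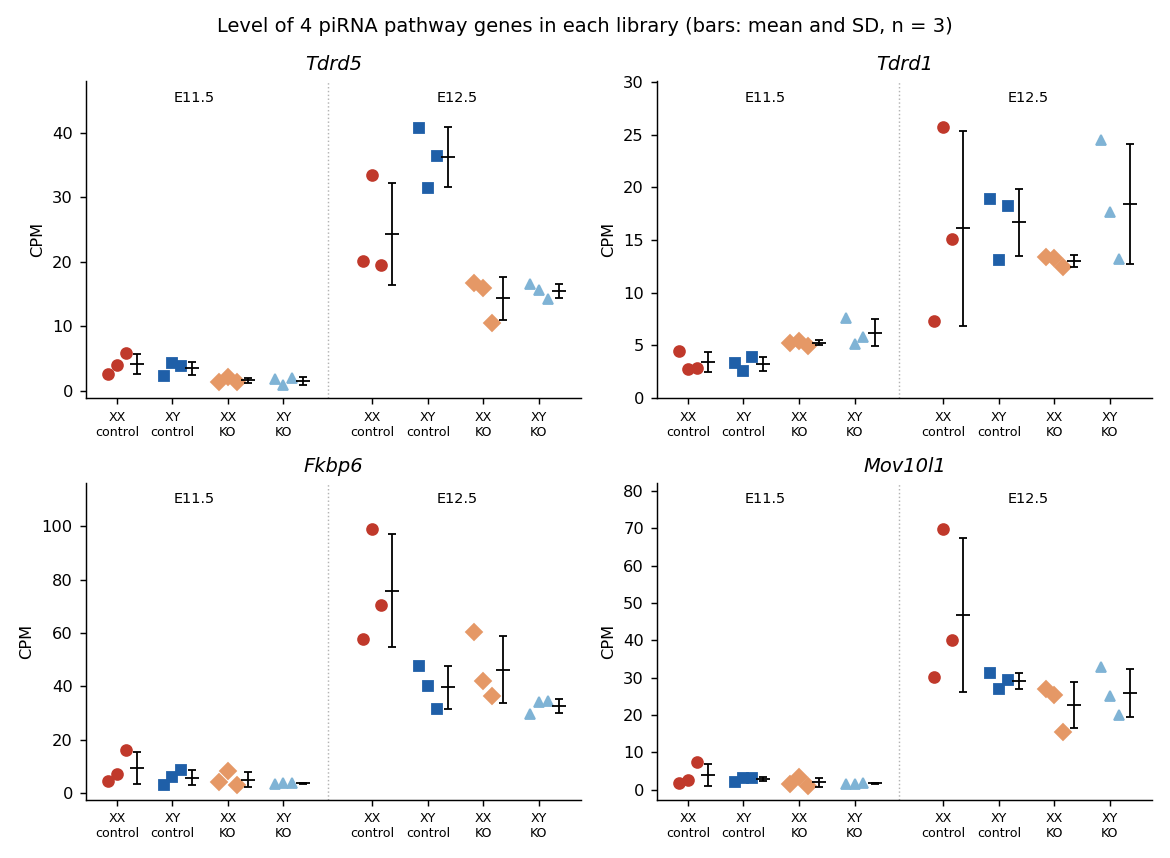
Levels in CPM of Tdrd5, Tdrd1, Fkbp6 and Mov10l1 in each library (points) of the 4 genotypes at both stages, with mean and SD (bars, n = 3). At E12.5 Tdrd5 runs from 31.5 to 40.8 CPM in XY controls and from 10.6 to 16.7 CPM in the 6 KO libraries.

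XX KO gonads were compared with XX controls. At E12.5 all 31 members had a log2 fold change below 0, from -1.05 to -0.11, with a median of -0.71 against -0.002 over all genes, whereas with libraries scaled to the germ markers 25 of the 31 lay above 0. Without XX control replicate 2 the members' median was -0.28. Few of these differences passed: 2 of the 31 fell, Mov10l1 and Taf4b, where 1.85% of all genes did. The libraries did not overlap for 6 members, all lower in XX KO, whereas 10.5% of all genes were apart in that direction. The germ markers moved with them, with 6 of 12 called lower and a median of -0.92. That scaling moved the median of all genes by 0.96, and relative to that shifted median the members stood at -0.71, as they did without the scaling. The part of germ cell number in these differences was not tested.

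Mov10l1, the RNA helicase that feeds piRNA precursors into processing, stood at 30.3, 69.9 and 40.0 CPM in XX controls and 26.9, 25.4 and 15.6 CPM in XX KO gonads, and fell by 1.05 ± 0.28 (adjusted p = 0.0443 by edgeR). Taf4b stood at 34.9, 63.0 and 34.8 CPM against 28, 27.2 and 16.8 CPM and fell by 0.88 ± 0.22 (adjusted p = 0.0375). Neither gene overlapped between the genotypes. Per 100 CPM of germ marker the groups did overlap, with Mov10l1 at 2.70 to 3.68 CPM in XX controls and 2.81 to 3.57 CPM in XX KO gonads. Taf4b held 2.98 to 3.31 CPM and 2.93 to 3.85 CPM on that scale, and its log2 fold change under germ marker scaling was 0.06. Leaving out XX control replicate 1 or 2, XX KO replicate 3, any 1 of the XY controls or XY KO replicate 2 left 0 members called, and leaving out XX control replicate 3 left 6. Rec8 and Stra8 were the members nearest to 0, at -0.11 and -0.13.

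Whether the KO effect differed between the sexes was tested as the mutant effect in XY minus that in XX. At E12.5 this passed for 3 of the 31 members, Rec8 at 3.79 ± 0.34 (adjusted p = 4.98e-06 by edgeR), Stra8 at 6.74 ± 1.66 (adjusted p = 0.0187) and Sycp3 at 1.30 ± 0.39 (adjusted p = 0.0424). All 3 were positive, and 5.9% of all genes were called in that direction. For Rec8 and Stra8 the XY effect was positive and past the threshold, while for Sycp3 neither effect alone passed, at 0.62 in XY and -0.68 in XX. Rec8 passed whichever library was left out. Stra8 did not pass without the filter on low counts (6.72, adjusted p = 0.0752) or with the replicate block (6.54, adjusted p = 0.0602). Rec8 was the only member to pass without XX KO replicate 3, XY control replicate 1 or 2, or XY KO replicate 1. Without XX control replicate 1, 9 members passed. At E11.5, 0 of 28 members passed, with 0 at an unadjusted p under 0.05 and 0 by DESeq2, where 0.0352% of all genes did.

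The KO gonads of the 2 sexes were compared with each other. Between XX KO and XY KO gonads 0 members were called at either stage, where 0.0844% of all genes were called at E11.5 and 0.153% at E12.5. DESeq2 called 0 at both stages as well. Unadjusted p was under 0.05 for 0 members at E11.5 and for 1 at E12.5, Fkbp6, which stood 0.50 higher in XX KO on the log2 scale and whose libraries did not overlap. The sum over the meiosis genes with a row was 476, 465 and 352 CPM in XX KO and 475, 495 and 366 CPM in XY KO gonads. It was 391, 921 and 553 CPM in XX controls and 295, 311 and 333 CPM in XY controls, so the KO libraries of both sexes all lay above the XY controls. Rec8 and Stra8 carried that separation: over the 16 other meiosis genes the sum was 385, 369 and 238 CPM in XX KO, 406, 400 and 299 CPM in XY KO and 292, 304 and 328 CPM in XY control gonads, and the groups overlapped.

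XY KO gonads were also set against XX controls, with libraries that both earlier comparisons use. At E12.5, 2 of 31 members were lower in XY KO, Fkbp6 by -1.21 ± 0.22 (adjusted p = 0.00816 by edgeR) and Syce2 by -0.67 ± 0.16 (adjusted p = 0.0301), where 1.61% of all genes were lower. Syce2 measured 34.5, 41.4 and 42.7 CPM in XY KO gonads. Of the members, 30 had a log2 fold change below 0, with a median of -0.56, against 9 under germ marker scaling. That scaling moved the median of all genes to 0.63, and 29 of the 31 members lay below this shifted median. Without the scaling and without XX control replicate 2, the members' median was -0.21. Of the germ markers, 7 of 12 were called lower, with a median of -0.99. Under germ marker scaling Syce2 stood at 0.03. Its call was lost without XX control replicate 2 or any 1 of the XY KO libraries.

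**Figure D4:**
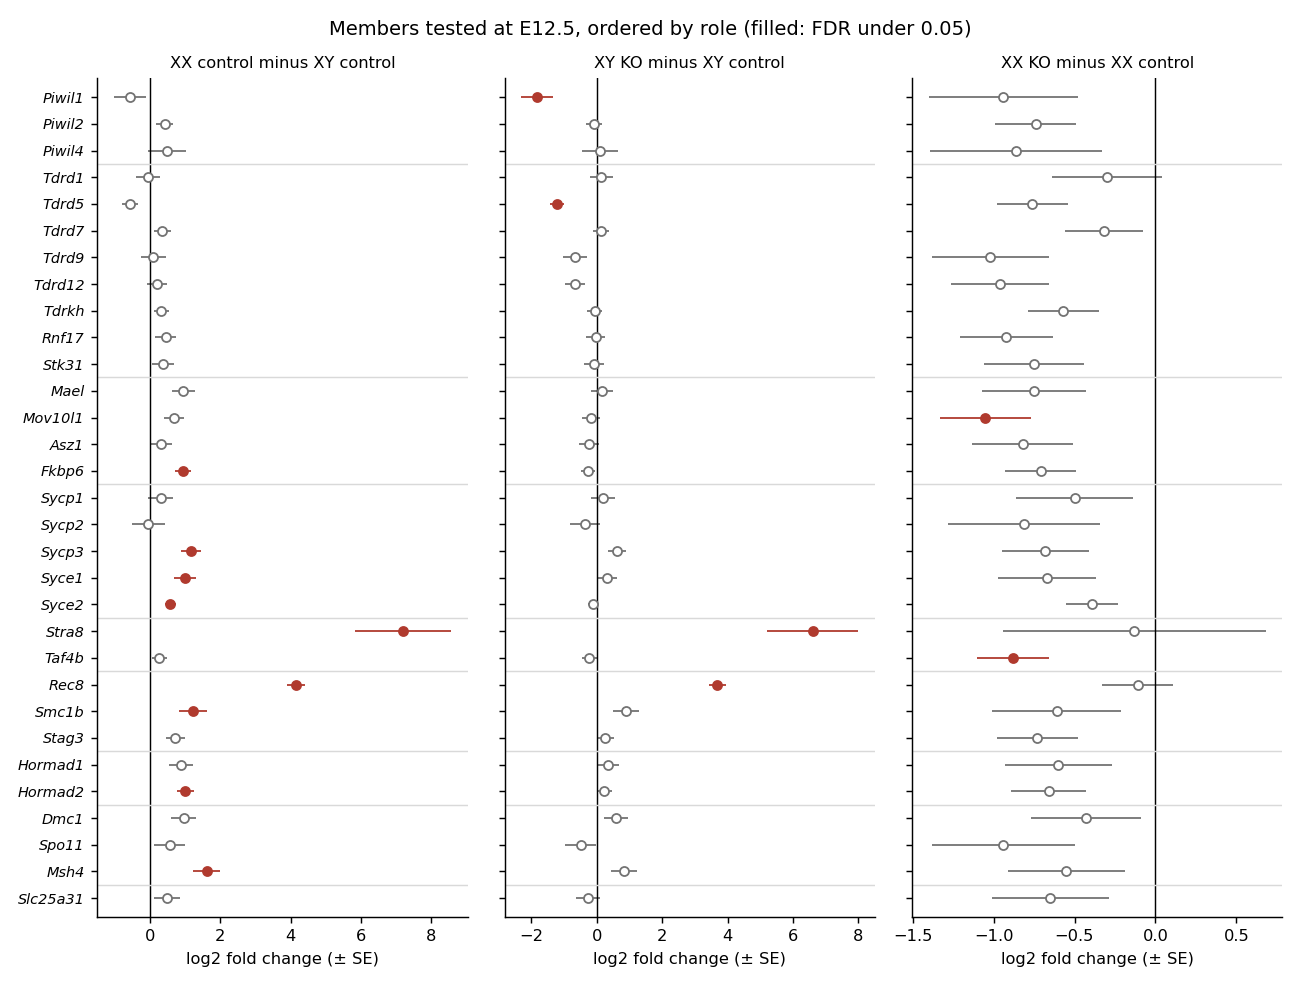
Log2 fold change with SE (bars) of the 31 tested members at E12.5 in 3 comparisons, with filled points where the adjusted p of edgeR was under 0.05; the panels have separate x axes. All 31 members lie below 0 for XX KO against XX control, whereas Rec8 and Stra8 lie at 3.68 and 6.61 for XY KO against XY control. With libraries scaled to the germ markers, 6 lie below 0 for XX KO against XX control. In that scaling 30 lie below the shifted median of all genes, 0.96.

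At E11.5 the members' levels were low and 2 Tudor genes carried the calls. In XY KO against XY control gonads Tdrd1 rose and Tdrd5 fell, 1 gene in each direction of 28, where 5.88% of all genes rose and 6.81% fell. Tdrd1, a scaffold that binds methylated PIWI proteins, stood at 7.63, 5.13 and 5.84 CPM in XY KO against 3.35, 2.57 and 3.89 CPM in XY controls, a difference of 0.93 ± 0.23 (adjusted p = 0.0176 by edgeR). The XX controls measured 4.47, 2.78 and 2.89 CPM and the XX KO libraries 5.27, 5.44 and 4.98 CPM, so that every KO library was above every control library. In XX KO against XX controls the Tdrd1 difference of 0.64 did not pass.

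Tdrd5 was lower in KO libraries of both sexes at E11.5. It stood at 2.67, 4 and 5.84 CPM in XX controls, 2.34, 4.32 and 3.89 CPM in XY controls, 1.41, 2.17 and 1.48 CPM in XX KO and 1.85, 0.923 and 1.95 CPM in XY KO libraries. The 6 KO libraries were all below the 6 controls. It fell by 1.15 ± 0.35 in XY (adjusted p = 0.0405 by edgeR) and by 1.31 ± 0.34 in XX (adjusted p = 0.0483), where it was the only member called and 1.46% of all genes fell. Against XX controls, XY KO libraries had Tdrd1 higher by 0.89 ± 0.23 (adjusted p = 0.0277) and Tdrd5 lower by -1.39 ± 0.35 (adjusted p = 0.0216), where 3.81% of all genes were higher and 5.28% lower. The germ marker sum in the same libraries overlapped between KO and control within each sex. Under germ marker scaling Tdrd5 stood at -0.56 in XY and -0.41 in XX and passed in neither, and Tdrd1 at 1.48 in XY did not pass either. In XY, 0 members were called without XY KO replicate 1, and Tdrd5 was lost without XX control replicate 2, XY control replicate 2 or 3, or XY KO replicate 2 or 3. In XX, 0 were called without XX control replicate 2 or 3, XX KO replicate 1 or 3, XY control replicate 3, or XY KO replicate 1 or 3. Tdrd5 was also lost in XX without XX KO replicate 2, where Syce1 was the only member called. Against XX controls, 0 were called without XX control replicate 2 or 3, and 1 without any 1 of the XY KO libraries.

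Over the 4 genotypes at E12.5 the mean was highest in XX controls for 27 of the 31 members. The lowest mean was in XX KO gonads for 11 of the 15 piRNA genes and in XY controls for 9 of the 16 meiosis genes. Libraries of 1 genotype also varied together in XX gonads. XX control replicate 2 was above XX control replicate 1 for all 31 members, with a median ratio of 2.34 and 50.5 for Stra8, while the germ marker ratio was 1.69 and the median over all genes 0.997. In XX KO gonads replicate 1 was above replicate 3 for 30 of 31, with a median ratio of 1.58 against 2.19 for the germ markers. The XY genotypes did not show this. In XY controls replicate 3 was above replicate 1 for 19 of 31, with a median ratio of 1.16 against 1.24 for the germ markers. In XY KO gonads replicate 2 was above replicate 1 for 14 of 31, with a median ratio of 0.981 against 1.23.

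**Figure D5:**
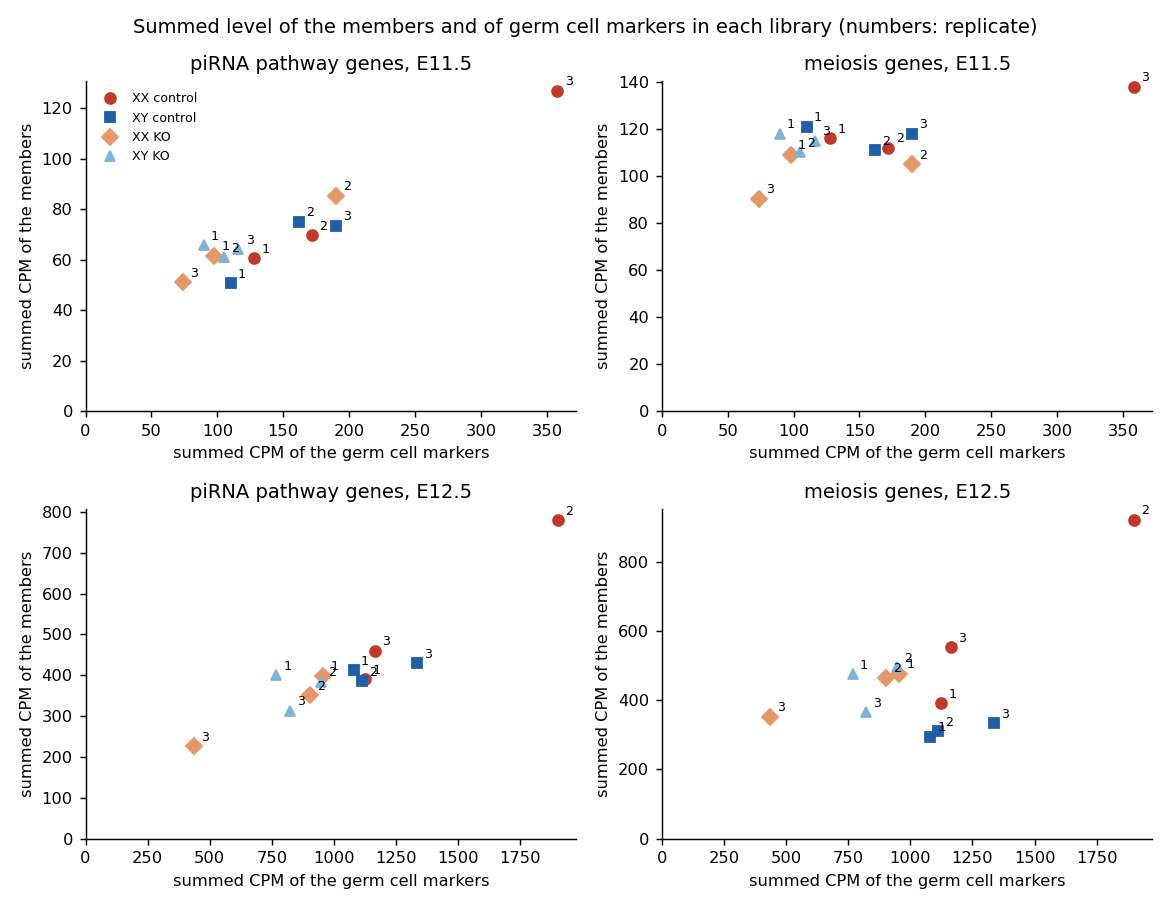
Summed CPM of the piRNA genes and of the meiosis genes with a row (y axes) against the summed CPM of 12 germ cell markers (x axes) in each of the 12 libraries of a stage, coloured by genotype. At E12.5 the XY controls have the lowest meiosis sums, 295 to 333 CPM, at marker sums of 1079 to 1335 CPM, while XX KO replicate 3 has a meiosis sum of 352 CPM at a marker sum of 436 CPM.

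Other genes of both pathways, from lists that hold no member, were also examined. Of 18 tested piRNA pathway genes, 2 were higher and 2 lower in XX than in XY controls at E12.5. Of all genes, 11.4% were higher and 12.4% lower in that comparison. Mybl1, the transcription factor A-MYB, stood at 49.5, 75.8 and 90.6 CPM in XY controls and 19.6, 18.4 and 11.9 CPM in XY KO gonads and fell by 2.12 ± 0.34 (adjusted p = 0.000405 by edgeR). Tex15, a nuclear factor of piRNA-guided silencing, rose by 1.19 in XY KO gonads (adjusted p = 0.00532). Of 28 tested meiosis genes, 2 were higher in XX than in XY controls, beside the same 11.4% of all genes. Among them was Meiob, a single-stranded DNA binding protein, at 2.70 ± 0.71 (adjusted p = 0.0121 by edgeR). Meiob passed the test of the sex difference in KO effect too, at 3.22 ± 0.95 (adjusted p = 0.038). Esrp1, a splicing regulator, fell in KO gonads of both sexes, by 0.78 in XY and 1.06 in XX.

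A list of male germ cell and meiosis-blocking genes was examined beside the members. At E12.5, 7 of its 8 tested genes were lower in XX than in XY controls, where 12.4% of all genes were. In XY KO against XY control gonads 7 fell, where 10.3% of all genes did. The list holds the Sertoli cell gene Cyp26b1, and Fgf9, which is also counted among the Sertoli markers. Cyp26b1 stood at 356, 371 and 300 CPM in XY controls, 13.1, 8.68 and 10.5 CPM in XX controls and 12, 21.9 and 27.8 CPM in XY KO gonads, and fell by 4.05 ± 0.31 in the last (adjusted p = 4.14e-07 by edgeR). Nanos2 was at 2.53, 0.607 and 1.65 CPM in XY controls and at 0.103 CPM or less in all other libraries. The 3 XY controls, the libraries with the lowest Rec8 and Stra8, were thus those with the highest Cyp26b1 and Nanos2. Somatic markers differed between the same libraries, with all 9 Sertoli markers lower and all 7 pre-granulosa markers higher in XY KO than in XY control gonads, and the mesonephric markers summed to 328 to 373 CPM in XY KO, 339 to 414 CPM in XX controls and 106 to 137 CPM in XY controls. The part of either difference in the members' levels was not tested.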

How the data were processed

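The authors deposited, in 1 table for each stage, raw counts per gene that were not normalized. They aligned reads to mm10 and counted them with Subread and featureCounts. Which annotation and strand setting they used, and how multi-mapping reads were counted, is not given in the sources used here. From these counts, levels were computed as CPM with TMM library sizes, and each stage was fitted with edgeR 4.0.16 (quasi-likelihood, robust, R 4.3.3) over its 12 libraries, with contrasts between genotypes and Benjamini-Hochberg adjustment over all tested genes. Genes needed at least 1 CPM in at least 2 libraries, as in the study. The members and lists were chosen with earlier results of these data known. The members Tdrd6, Tdrd12, Tdrkh, Rnf17, Asz1 and Gtsf1 are not described one by one. Gtsf1 passed the filter at neither stage. Of the exon bases of Tdrkh, 36.7% are shared with Oaz3 on the opposite strand, so its counts are uncertain too. Apart from Mir17hg and the overlapping genes Chpt1 and Oaz3, other genes were named only from fixed lists. Alternatives covered DESeq2 1.42.0, other scalings and filters, a replicate block, the compared genotypes alone and leaving out each library. On simulated data for XY KO against XY control gonads, 78.5% of 200 genes changed 2-fold were recovered at E11.5, of 14217, and 68.0% at E12.5, of 14348. Total counts of 11877379 to 44155275 per library set the counting error, and low members rest on few reads. Gene positions and 3′ UTRs came from GENCODE vM21 (GRCm38, the same assembly as mm10). Promoters and microRNAs came from RefSeq. In Foxl2 mutant tables, 12 columns could not be matched to a sample and were not used. The retinoic acid response list is not reported here.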

Additional observations from a re-analysis of the deposited data

Results flagged for a closer look

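The KO effect differed between XY and XX gonads at E12.5, by the test of that difference in edgeR, for Rec8 at 3.79, Stra8 at 6.74 and Sycp3 at 1.30 on the log2 scale. Without XX KO replicate 3, XY control replicate 1 or 2, or XY KO replicate 1, Rec8 was the only member of the 3 still called, and Rec8 passed under all other libraries left out as well. Syce2 in XY KO against XX control gonads stood at 0.10 at E11.5 and at -0.67 at E12.5, with all libraries apart in opposite directions. The difference between the stages was not tested, since tissue and kit differ between them.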

How the results depend on the processing

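Of 546 values for 25 named gene results, 422 kept their direction and side of the threshold, 121 kept the direction without passing and 3 reversed, and of 332 counts and shares 271 held. The 3 were Taf4b in XX KO against XX control gonads at E12.5, at 0.06 under germ marker scaling and 0.04 under Ddx4 and Dazl scaling, and Syce2 in XY KO against XX control gonads, at 0.03 under germ marker scaling. Both scalings divide by markers that themselves differed between genotypes. Rec8 kept its 3 calls at E12.5 under every alternative run. Members called under germ marker scaling numbered 0 in all comparisons at E11.5, where 0.0563% to 0.457% of all genes were called. At E12.5 they were 2 between control sexes (10.6% of all genes) and 0 in XY KO against XX control gonads (8.76%). In XX KO against XX control gonads 1 was called, where 61.6% of all genes were. This was Rec8, called higher, while neither Mov10l1 nor Taf4b was called. Ddx4 and Dazl scaling gave 0 in each at E11.5, where at most 0.0844% of all genes were called. At E12.5 it gave 2 between control sexes (6.29% of all genes) and 2 in XY KO against XY control gonads (5.54%). It gave 0 in XX KO against XX control (7.5%) and 0 in XY KO against XX control gonads (0.788%). DESeq2 called 8 in XX KO against XX control (10.1% of all genes) and 4 in XY KO against XX control gonads (8.46%) at E12.5. With the compared genotypes alone, 1 was called in XY KO against XY controls at E11.5 (5.56% of all genes). In XX KO against XX control gonads at E12.5 that setting gave 0 (1.76%). The call of Stra8 between control sexes at E12.5 was also lost under it. In XX KO against XX control libraries at E11.5, library sizes without TMM gave 0 (2.96% of all genes) and the fit that was not robust gave 0 (3.21%). The cause of these changes was not tested.

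Leaving out 1 library at a time gave, at E12.5, 6 to 15 calls between control sexes, 3 to 5 in XY KO against XY control, 0 to 6 in XX KO against XX control, 1 to 3 in XY KO against XX control and 1 to 9 in the sex difference of the KO effect. The share of all genes called also moved, from 19.3% to 25.7% between control sexes and from 14.6% to 22.4% in XY KO against XY control gonads. That share ran from 0.244% to 11.7% in XX KO against XX control and from 1.16% to 6.5% in XY KO against XX control gonads. In the sex difference it ran from 9.35% to 17.4%. At E11.5 leaving out 1 library gave 0 to 1 between control sexes, 0 to 2 in XY KO against XY control, 0 to 1 in XX KO against XX control and 0 to 2 in XY KO against XX control gonads. The share of all genes then ran from 0.394% to 17.6% between control sexes and from 5.73% to 20.4% in XY KO against XY control gonads. It ran from 1.01% to 4.66% in XX KO against XX control and from 3.75% to 14.1% in XY KO against XX control gonads. The germ marker ratio of XY KO to XY control gonads from Ddx4 and Dazl alone had a log2 of 0.08 at the earlier and -0.27 at the later stage.

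The replicate numbers did not pair the samples: deviations of same-numbered libraries correlated between -0.304 and 0.45 at E11.5 and between -0.507 and 0.388 at E12.5, and 6 and 5 of 12 libraries were closest to their own number. With the replicate block, 0 members were called in XX KO against XX control libraries at E11.5 (2.73% of all genes). At E12.5 there was 1 in XY KO against XX control gonads (3.76%) and 1, Rec8, in the sex difference of the KO effect (12%).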

Other observations

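At E11.5 some members moved with the germ markers inside a genotype and others did not. XX control replicates 3 and 1 had germ marker sums that differed 2.79-fold. Of the 28 tested members, 21 were higher in replicate 3, with a median ratio of 1.95 over all 28, and 10 reached at least the marker ratio. Among the highest, Mael was 8.03-fold, Hormad1 4.38-fold, Mov10l1 4.09-fold and Stk31, a Tudor domain kinase of the germline, 4.05-fold higher in replicate 3. Mael rested on 8 counts in replicate 1. In the same pair Rec8 stood at 0.576, Tdrd1 at 0.647, Dmc1 at 0.738 and Tdrd7, a Tudor protein also made in other tissues, at 0.982 of the replicate 1 level. The complexes at E11.5 hold the mesonephros too, and the cells that carry these transcripts were not tested.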
